A study of Homo sapiens with 4 samples.

Results

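The genes described here are the N6-methyladenosine (m6A) demethylases FTO and ALKBH5, the YTH domain readers YTHDC1, YTHDC2, YTHDF1, YTHDF2 and YTHDF3, and the nuclear readers HNRNPC and HNRNPA2B1. They were taken by gene symbol from a list of m6A erasers and readers, by a rule that uses no measured value, and are 9 of the 59885 genes in the table. RNA sequencing compared 2 libraries of cells with CFL1 knockout with 2 control libraries under the genotype labels control1 and control2, with PANC-1, an established line from a human pancreatic ductal tumour, as the labelled cells of all 4. CFL1 encodes the actin-severing protein cofilin-1, and no label names the guide, the clones, the control construct or separate cultures, so the p-values reflect only how far these libraries spread, and that spread may be technical. The series title ties CFL1 to m6A on super-enhancer RNA, and in the study's account YTHDC2 reads that mark and the histone methyltransferase KMT2A acts with it, so the comparison here asks whether the RNA of the proteins that remove or read m6A differs when CFL1 is lost.

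m6A is placed on nascent RNA by a methyltransferase complex around METTL3 and METTL14. It is taken off by the dioxygenases FTO and ALKBH5. It acts mostly through proteins that bind it: the YTH domain holds the methylated base in an aromatic pocket, YTHDC1 does so in the nucleus, the YTHDF proteins do so in the cytoplasm, where YTHDF2 is best known for bringing RNA to the CCR4-NOT deadenylase, and YTHDC2 is an RNA helicase as well as a reader. HNRNPC and HNRNPA2B1 are abundant nuclear RNA-binding proteins whose access to RNA is altered by m6A.

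None of the 9 genes passed the test. The control libraries differed more from each other than the knockouts did at all 9, as they did at 86.7% of the tested genes with recovered reads. In the authors' deposited table, 0 of 9 had an adjusted p under 0.05, against 0.559% of the 16629 genes tested (0.92% at an adjusted p under 0.1, also 0 of 9), and 0 of 9 had an unadjusted p under 0.05, against 12.6%. The deposited log2 fold changes, knockout over control, ran in the authors' deposited table from -0.78 for YTHDF2 to 0.23 for YTHDC2, with a median of -0.28. The median was -0.03 over all genes tested and -0.09 over the 7031 tested genes whose base mean, the mean normalized count over the 4 libraries, reached 500. For 8 of 9 genes the deposited fold change lay below 0, as it did for 51.5% of all genes tested. The values per library below are whole reads recovered from the base means and divided by the size factors of the authors' fit, called normalized reads here. The letters A and B only name the libraries and do not map to the numbers in the labels.

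The promoter windows of YTHDC1 and YTHDC2 share an 8-base element, and are shown with those of YTHDF1 and YTHDF2, the YTHDF genes whose promoter windows were searched. Each window holds 250 bases before and 50 after a gene start, 5′ to 3′ on the gene's strand, from RefSeq on GRCh38.p14. The YTHDC1 window is chr4:68350041-68350340, minus strand. The YTHDC2 window is chr5:113513444-113513743, plus strand, and the YTHDF1 window is chr20:63216082-63216381, minus strand. RefSeq gives YTHDF2 a pair of windows, of which the downstream one is shown, chr1:28736690-28736989, plus strand. Capitals mark matches on either strand to TGACGTCA (the cyclic AMP response element), CACGTG (an E-box), GGGCGG (a GC box) and CCAAT.
YTHDC1: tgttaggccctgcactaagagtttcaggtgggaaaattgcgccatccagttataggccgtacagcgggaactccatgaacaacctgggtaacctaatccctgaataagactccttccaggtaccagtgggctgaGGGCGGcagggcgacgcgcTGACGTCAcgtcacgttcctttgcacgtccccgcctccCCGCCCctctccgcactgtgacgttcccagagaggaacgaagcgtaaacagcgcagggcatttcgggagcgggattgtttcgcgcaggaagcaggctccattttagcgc
YTHDC2: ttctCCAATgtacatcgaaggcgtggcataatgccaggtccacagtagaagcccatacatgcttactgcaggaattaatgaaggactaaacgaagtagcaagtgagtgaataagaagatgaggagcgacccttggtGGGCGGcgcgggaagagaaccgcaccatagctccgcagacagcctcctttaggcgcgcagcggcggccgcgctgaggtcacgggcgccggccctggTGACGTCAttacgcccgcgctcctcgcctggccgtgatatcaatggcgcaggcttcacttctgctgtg
YTHDF1: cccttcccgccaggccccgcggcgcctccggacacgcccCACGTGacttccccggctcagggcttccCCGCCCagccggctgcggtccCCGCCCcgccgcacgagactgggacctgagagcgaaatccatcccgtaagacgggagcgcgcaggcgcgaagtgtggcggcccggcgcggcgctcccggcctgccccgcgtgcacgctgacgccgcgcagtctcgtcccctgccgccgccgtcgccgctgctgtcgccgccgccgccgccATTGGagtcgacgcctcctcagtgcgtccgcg
YTHDF2: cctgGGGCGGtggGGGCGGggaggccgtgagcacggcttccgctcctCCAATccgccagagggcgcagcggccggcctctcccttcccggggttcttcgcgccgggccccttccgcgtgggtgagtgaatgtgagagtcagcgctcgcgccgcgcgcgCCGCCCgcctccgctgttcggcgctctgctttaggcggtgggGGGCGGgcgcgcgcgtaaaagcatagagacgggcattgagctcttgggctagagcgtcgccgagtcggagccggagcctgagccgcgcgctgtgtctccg
TGACGTCA stood in the windows of YTHDC1 and YTHDC2 and in no other of the 9 windows searched, which cover 8 of the genes. Of 35116 promoter windows of the same length, 1.85% held it. CACGTG stood in the YTHDF1 window alone among the 9, and in 7.26% of all windows. GGGCGG stood in 7 of the 9 windows, those of ALKBH5, HNRNPC, YTHDC1, YTHDC2, YTHDF1 and both of YTHDF2, and in 45.0% of all windows. CCAAT stood in 5 of the 9 and in 34.6% of all. TATAAA stood in the HNRNPC window alone among the 9 and in 11.5% of all, and CCGGAAG, an ETS core, in none of the 9 and in 10.3% of all. No match of these 6 motifs overlapped a match of another in the 9 windows. GC content was 77.3% in the YTHDF1 window and 73.0% in the YTHDF2 window shown, 58.3% in each of the YTHDC1 and YTHDC2 windows, and had a median of 58.7% over all windows. The motifs were chosen with the sequences in view, and a match is not evidence of binding.

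CFL1 itself had 2285 and 2487 normalized reads in knockouts A and B, against 6276 in control A and 13761 in control B, and a log2 fold change of -2.07 stands in the authors' deposited table with its standard error, SE, on the same scale (SE 0.454, adjusted p 0.00168). The recovered reads per library were 16108357 and 13581762 in the knockouts, and 15741683 and 15573882 in the controls. Control B stood apart. Over the 17170 recovered genes whose base mean reached 10, genes not being independent replicates, Pearson's r of log2(normalized reads + 1) was 0.99 between the knockouts, 0.98 between either knockout and control A, 0.72 and 0.73 between the knockouts and control B, and 0.73 between the controls. The labelled cell type was checked on its markers. The simple epithelial keratins KRT8 and KRT18 had at least 8049 normalized reads in every library, but their levels differed. KRT8 had 8150 and 8049 in the knockouts, against 13712.5 in control A and 29355 in control B. KRT18 had 9031 and 8321 in the knockouts, against 11358 in control A and 22850 in control B. KRT7, a ductal keratin, had 4000 and 3683 in the knockouts, against 3551 in control A and 108 in control B. The keratin gene KRT19, whose reads were not recovered, had the opposite sign, at -12.75 against 1.07 for KRT7 on the log2 scale in the authors' deposited table (adjusted p 0.221 and 0.794). The mesenchymal gene VIM, also not recovered, had -1.81 in the authors' deposited table (adjusted p 0.351). The epithelial gene CDH1 had 3.54 and 2.16 in the knockouts, against 12.7 in control A and 164 in control B. EPCAM, also epithelial, had 7.08 and 16.2 in the knockouts, against 6.36 in control A and 42.5 in control B. The epithelial gene MUC1 was higher in both knockouts, with 274 and 274, against 213 in control A and 104 in control B. CDKN2A, which is known to be deleted in PANC-1, had 1553 and 1303 in the knockouts, against 906 in control A and 0 in control B. At CDKN2A both knockouts and control A therefore go against the cell line label, and the fold change of each member is given below without each control in turn. Among markers of other cells, the leukocyte genes PTPRC and CD3E had at most 1.12 normalized reads in any library. The leukocyte gene CD14 had 8.85 and 9.71 in the knockouts, against 9.09 in control A and 36.9 in control B. The pericyte and fibroblast receptor gene PDGFRB had 439 and 451 in the knockouts, against 513 in control A and 6.71 in control B. The collagen gene COL1A1 ran the other way, with 687 and 556 in the knockouts, against 354 in control A and 1574 in control B. COL3A1 had 69.1 and 58.2 in the knockouts, against 26.4 in control A and 279 in control B. Summed over the 7 of 8 leukocyte, endothelial and fibroblast markers with a row in the table, the level was 1210 and 1083 in the knockouts, against 918 in control A and 1898 in control B. The part of cell identity in the results below was not tested, and in such bulk RNA fewer cells of a type and less RNA per cell cannot be told apart.

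**Figure D1:**
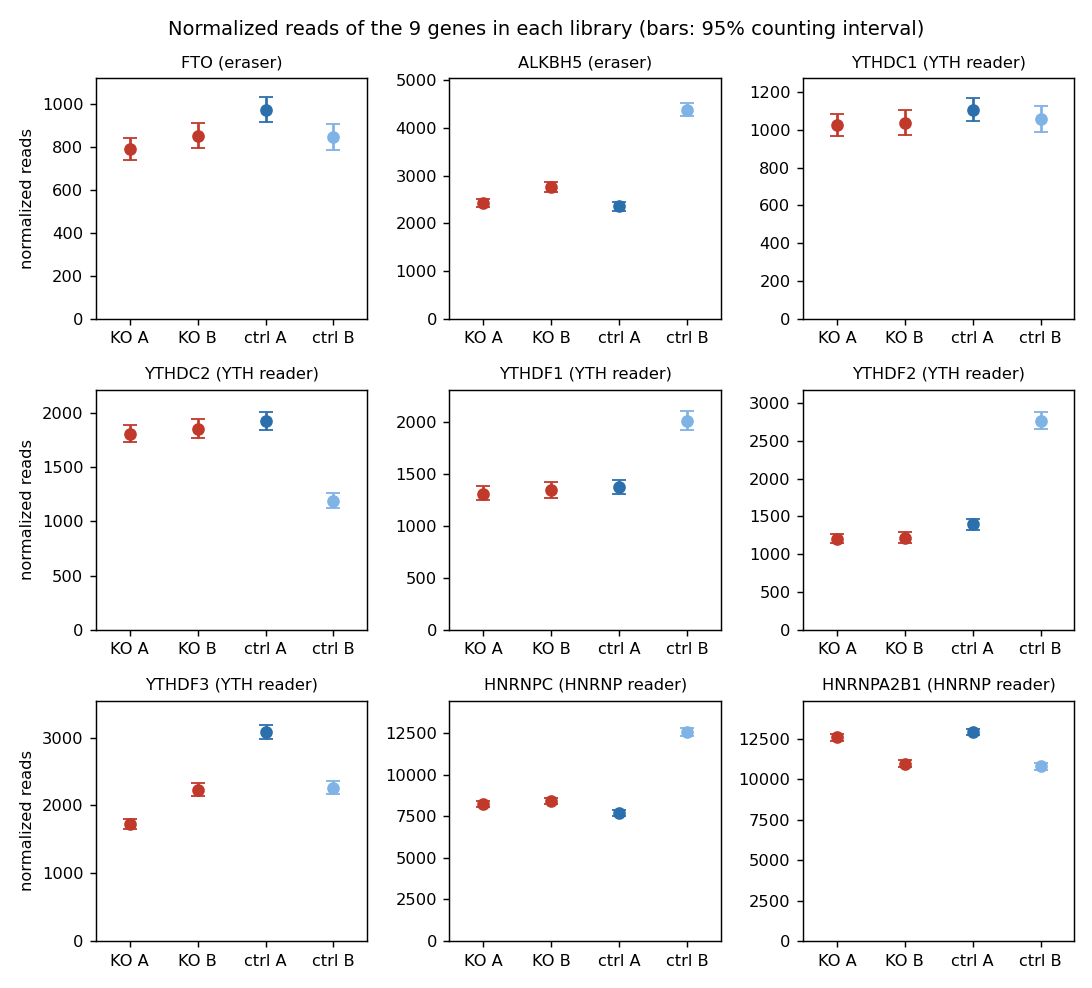
Normalized reads (y axis, from 0) of each of the 9 genes in knockouts A and B (red) and controls A and B (dark and light blue); bars are exact 95% Poisson intervals of the read count and cover counting error only. Control B lies far from the other libraries for ALKBH5, YTHDC2, YTHDF1, YTHDF2 and HNRNPC, as for YTHDC2 with 1189 normalized reads against at least 1805 elsewhere, while YTHDC1 stays between 1024 and 1106 in all 4.

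The erasers FTO and ALKBH5 did not pass the test, and in both genes at least 1 knockout lay between the controls. FTO, which demethylates m6A and the related cap-adjacent mark, had 788 and 850 normalized reads in knockouts A and B, against 972 in control A and 843 in control B. Knockout B lay between the controls, so the groups overlapped. In the authors' deposited table the log2 fold change of FTO was -0.15 (SE 0.220, adjusted p 0.768), and its 95% interval ran from -0.58 to 0.28. In limma fits to the recovered reads, FTO stood at -0.25 without control B (adjusted p 0.407) and at -0.04 without control A (adjusted p 0.708). ALKBH5, a nuclear m6A demethylase, had 2427 and 2755 normalized reads in the knockouts, against 2359 in control A and 4385 in control B. Both knockouts lay above control A and below control B. The mean of the knockouts was 1.098 times control A and 0.591 times control B, and control B was 1.86 times control A. For ALKBH5 the log2 fold change was -0.38 in the authors' deposited table (SE 0.394, adjusted p 0.678), with an interval from -1.15 to 0.39. By limma ALKBH5 stood at 0.13 without control B (adjusted p 0.648) and at -0.76 without control A (adjusted p 0.0692), so its direction turned with the control used.

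YTHDC2, the reader that the study sets at super-enhancer RNA, was the only member with a deposited fold change above 0, and it did not pass. It had 1805 and 1855 normalized reads in knockouts A and B, against 1927 in control A and 1189 in control B. The knockouts lay between the controls. Their counting intervals, 1728 to 1886 in knockout A and 1768 to 1945 in knockout B, overlapped that of control A, 1846 to 2011, and lay above that of control B, 1119 to 1263. In the authors' deposited table its log2 fold change was 0.23 (SE 0.340, adjusted p 0.765), and its 95% interval ran from -0.43 to 0.90. With limma on the recovered reads, the log2 fold change was -0.07 without control B (adjusted p 0.747) and 0.62 without control A (adjusted p 0.0340). The direction of YTHDC2 therefore depended on which control was used. Of the 25040 genes tested without control A, 33.7% were called, and of the 23855 tested without control B 0 were called, with 3398 at an unadjusted p under 0.05.

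YTHDC1, the nuclear reader known for splicing, export and chromatin-bound RNA, had the narrowest spread of the 9. It had 1024 and 1035 normalized reads in the knockouts, against 1106 in control A and 1056 in control B. Both knockouts lay below both controls, by less than their counting intervals, which reached 1085 in knockout A and 1103 in knockout B while that of control B began at 990. For YTHDC1 the authors' deposited table holds a log2 value of -0.07 (SE 0.182, adjusted p 0.868), with an interval from -0.43 to 0.29. By limma YTHDC1 stood at -0.10 without control B (adjusted p 0.672) and at -0.04 without control A (adjusted p 0.582). Scaled by the total of recovered reads instead, its limma value was 0.06, where the median over all genes lay at 0.13 on the log2 scale.

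The cytoplasmic readers YTHDF1, YTHDF2 and YTHDF3 each had both knockouts below both controls, and none passed. With YTHDC1 they make 4 of 9 genes with this order, against 21.2% of the 16489 tested genes with recovered reads, where 45.2% had groups apart in either direction. The opposite order, both knockouts above both controls, was seen for 0 of 9 genes, against 24.0% of the tested genes. YTHDF2 had 1208 and 1221 normalized reads in the knockouts, against 1395 in control A and 2764 in control B. On the log2 scale its knockouts lay 0.02 apart and its controls 0.99 apart, the largest control gap of the 9. In the authors' deposited table YTHDF2 had the largest fold change of the 9, a log2 value of -0.78 (SE 0.422, unadjusted p 0.0662, adjusted p 0.426), with an interval from -1.60 to 0.05. A lower deposited fold change was seen for 17.5% of all genes tested. With limma the log2 fold change of YTHDF2 was -0.20 without control B (adjusted p 0.435) and -1.19 without control A (adjusted p 0.0251).

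YTHDF1, known for promoting translation of methylated RNA, had 1310 and 1342 normalized reads in the knockouts, against 1371 in control A and 2008 in control B. Both knockouts were close to control A, with counting intervals that overlapped its own, 1302 to 1441. YTHDF1 had -0.35, on the log2 scale, in the authors' deposited table (SE 0.299, adjusted p 0.620), with an interval from -0.94 to 0.24. With limma it was -0.05 without control B (adjusted p 0.844) and -0.60 without control A (adjusted p 0.0342). YTHDF3, which acts with its paralogs in translation and decay, had 1727 and 2231 normalized reads in the knockouts, against 3085 in control A and 2260 in control B. Here control A was the higher control, and knockout B lay only just below control B. The knockouts differed by 0.37 on the log2 scale, the widest knockout gap of the 9. The log2 value of YTHDF3 was -0.43 in the authors' deposited table (SE 0.302, adjusted p 0.540), with an interval from -1.03 to 0.16. Without control B the limma value was -0.65 (adjusted p 0.281), and without control A it was -0.20 (adjusted p 0.570).

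**Figure D2:**
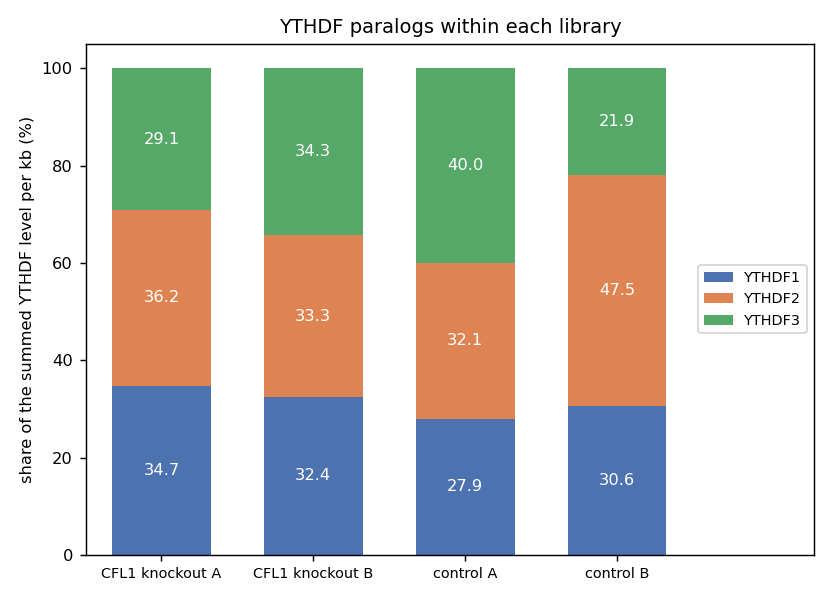
Share of each YTHDF paralog in the summed YTHDF level per kilobase of longest transcript (y axis, %) in each library. YTHDF2 takes 36.2% and 33.3% in the knockouts, against 32.1% in control A and 47.5% in control B, and YTHDF3 takes 29.1% and 34.3%, against 40.0% and 21.9%.

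Levels of different genes were compared as normalized reads per kilobase of the longest transcript. Summed over the YTHDF genes, this level was 1142 and 1253 in knockouts A and B, against 1486 in control A and 1989 in control B. The paralogs did not hold the same shares of that sum, as the plot of YTHDF shares shows. YTHDF1 took 34.7% and 32.4% of it in the knockouts, against 27.9% in control A and 30.6% in control B. Its share was thus higher in both knockouts by this length, but not by coding length. Per kilobase of coding length YTHDF1, YTHDF2 and YTHDF3 had 800, 703 and 1265 in knockout B, against 1198, 1591 and 1281 in control B. By that measure the YTHDF1 share of knockout B lay below that of control B. The YTHDF2 share in the knockouts lay between those of the controls, and so did the YTHDF3 share. Of the summed level of the 5 YTH genes, the YTHDF genes made up 72.5% and 73.9% in the knockouts, against 76.2% in control A and 85.2% in control B. These shares were not tested, since an exact two-sided permutation test of 2 against 2 libraries cannot go below 0.333.

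The ratio of YTHDC2 to YTHDC1 per kilobase was 1.64 and 1.66 in the knockouts, against 1.62 in control A and 1.05 in control B. The ratio of ALKBH5 to FTO was 13.2 and 13.9 in the knockouts, against 10.4 in control A and 22.3 in control B. In the YTHDC2 ratio the knockouts were close to control A, and in the eraser ratio they lay between the controls. The size of both ratios rests on the longest transcript, while the order of the libraries does not depend on length. Per kilobase of coding length YTHDC2 lay below YTHDC1 in every library. It had 421 and 432 in the knockouts against 465 and 470 for YTHDC1. In controls A and B it had 449 and 277 against 502 and 479.

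The nuclear readers HNRNPC and HNRNPA2B1 did not pass, and their groups overlapped. HNRNPC, which binds uridine tracts that m6A can expose, had 8251 and 8432 normalized reads in the knockouts, against 7698 in control A and 12585 in control B. Both knockouts lay above control A and below control B, as for ALKBH5. For HNRNPC the log2 fold change was -0.28 in the authors' deposited table (SE 0.333, adjusted p 0.711), with an interval from -0.94 to 0.37. With limma its value was 0.12 without control B (adjusted p 0.620) and -0.59 without control A (adjusted p 0.0413). HNRNPA2B1, a reader linked to splicing and to microRNA processing, had 12611 and 10954 normalized reads in the knockouts, against 12932 in control A and 10814 in control B. Each knockout lay near a different control. In the authors' deposited table its log2 fold change was -0.01 (SE 0.219, adjusted p 0.982), the value nearest 0 of the 9, with an interval from -0.44 to 0.42. By limma HNRNPA2B1 stood at -0.14 without control B (adjusted p 0.656) and at 0.12 without control A (adjusted p 0.570). The reads of HNRNPA2B1 were 1 of 13 whole-number solutions, chosen because the fold change they imply matched the deposited one. The ratio of HNRNPC to HNRNPA2B1 per kilobase of longest transcript was 0.913 and 1.07 in the knockouts, against 0.831 in control A and 1.62 in control B.

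**Figure D3:**
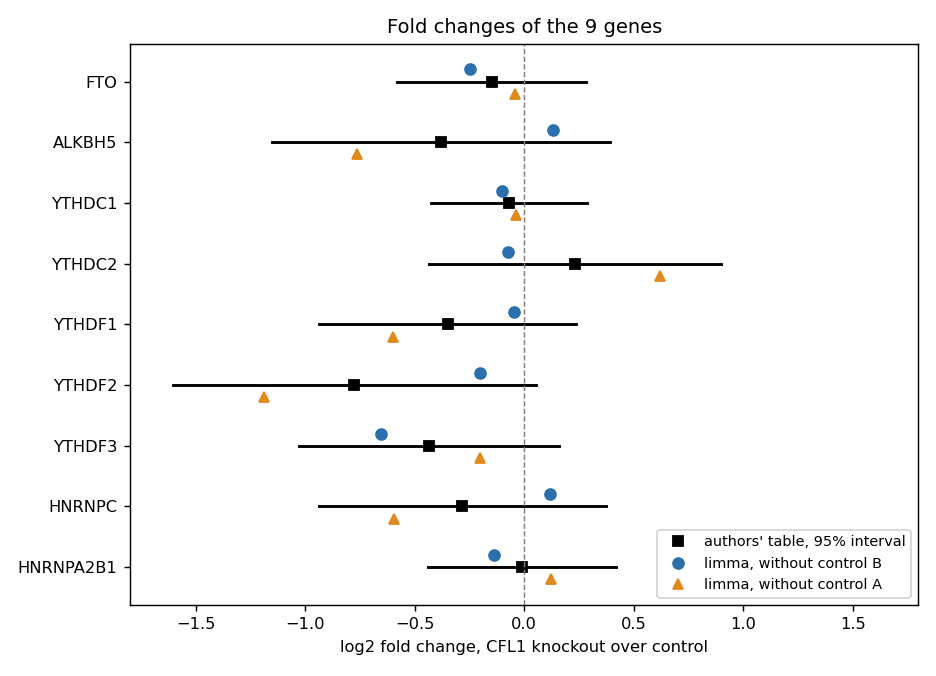
Log2 fold change (x axis, CFL1 knockout over control) of each gene in the authors' deposited table with its 95% interval (black), and from limma on recovered reads without control B (blue circles) and without control A (orange triangles). Every black interval crosses 0, and YTHDC2 lies at -0.07 without control B and at 0.62 without control A.

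The knockouts were set against each control on its own. Against control A, the mean of the knockouts on the log2 scale lay between -0.65 (YTHDF3) and 0.13 (ALKBH5), with a median of -0.10. Against control B it lay between -1.19 (YTHDF2) and 0.62 (YTHDC2), with a median of -0.20. Over all tested genes with recovered reads these medians were 0.01 and 0.02, and over those whose base mean reached 500 they were 0.00 and -0.13. The sign against control A and the sign against control B were the same for FTO, YTHDC1, YTHDF1, YTHDF2 and YTHDF3, all downward, and opposite for ALKBH5, YTHDC2, HNRNPC and HNRNPA2B1. The median gap between the controls was 0.55 over the 9 genes and 0.86 over all tested genes. The median gap between the knockouts was 0.04 over the 9 genes and 0.15 over all tested genes. The gap between controls exceeded that between knockouts for 9 of 9 genes and for 86.7% of the tested genes. Among tested genes whose base mean reached 500, as it did for all 9, the share was 89.9%.

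**Figure D4:**
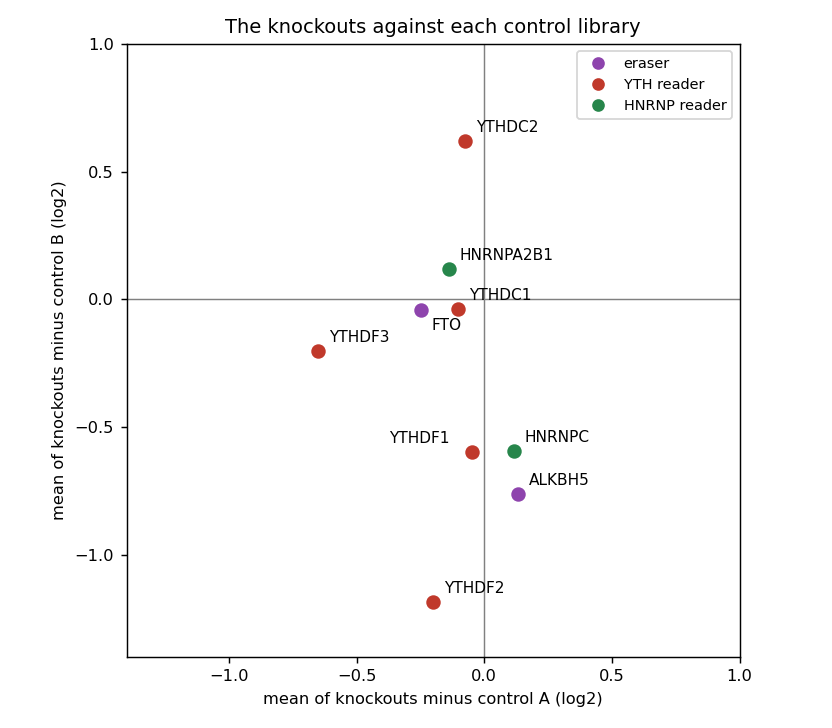
Mean of the knockouts minus control A (x axis) and minus control B (y axis), both on the log2(normalized reads + 1) scale, for the 9 genes. YTHDC2 stands highest, at 0.62 against control B and -0.07 against control A, YTHDF2 lowest, at -1.19 against control B, and YTHDF3 farthest left, at -0.65 against control A.

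The order of the levels was HNRNPC, HNRNPA2B1, ALKBH5, YTHDF2, YTHDF1, YTHDF3, YTHDC2, YTHDC1 and FTO, by the mean of normalized reads per kilobase over the 4 libraries. HNRNPC ranged from 1710 to 2796 per kilobase and HNRNPA2B1 from 1721 to 2058, so the first pair did not differ beyond its spread. ALKBH5 ranged from 859 to 1596, below both HNRNP genes in every library. YTHDF2, YTHDF1 and YTHDF3 ranged from 413 to 945, from 397 to 608 and from 332 to 594, and overlapped one another, and the highest YTHDF2 value reached into the range of ALKBH5. YTHDC2, at 177 to 287, and YTHDC1, at 164 to 177, lay below every YTHDF value, and FTO lay lowest, at 67.0 to 82.6. The order depends on control B. Without it HNRNPA2B1 came before HNRNPC, at 1936 and 1806 per kilobase, the YTHDF genes ran YTHDF3, YTHDF2 and YTHDF1, and 4 of 9 genes kept their rank. Without knockout A 7 of 9 kept it, YTHDF1 and YTHDF3 changing places. The order also depends on the length used. Per kilobase of coding length HNRNPA2B1 came first and YTHDC2 last, and only ALKBH5 and YTHDC1 kept their rank. By base mean alone, without regard to length, the 9 genes lay above between 70.4% (FTO) and 99.3% (HNRNPA2B1) of the genes tested.

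Other genes of the m6A system and the partners of the readers were counted in 7 lists. Of 85 tested genes 0 rose and 1 fell, where 0.138% and 0.421% of all tested genes did. The gene that fell was IGF2BP3, an RNA-binding protein that stabilizes RNA and has been proposed as an m6A reader. IGF2BP3 had 1277 and 1515 normalized reads in the knockouts, against 2413 in control A and 3107 in control B, and stood at -0.98, log2, in the authors' deposited table (SE 0.262, adjusted p 0.0352). Both knockouts lay below both controls. Limma with all 4 libraries called 0 of 24853 genes, with 514 at an unadjusted p under 0.05, and so bears on none of the lists. Without control A limma called 31 of the listed genes, where it called 33.7% of all genes. Among the 11 IGF2BP and other proposed reader genes the median deposited log2 fold change was -0.59, 10 lay below 0, against 51.5% of all tested genes, and in 6 both knockouts lay below both controls, against 21.2%. Set against control A alone the list's median was -0.16, and with control B alone it was -1.01.

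Among 11 genes of the writer complex, which places m6A, 0 were called and the median was 0.01, with both knockouts below both controls in 4 and above both in 3. Over all tested genes with recovered reads, these orders were seen for 21.2% and 24.0%. The catalytic subunit gene METTL3 had 529 and 555 normalized reads in the knockouts, against 592 in control A and 696 in control B, and -0.25 in the authors' deposited table (adjusted p 0.654). KIAA1429, the scaffold also called VIRMA and the most abundant of the list, had 0.05 in the authors' deposited table (adjusted p 0.929). The 7 other AlkB genes, relatives of FTO and ALKBH5 in the same dioxygenase family, had 0 calls and a median of 0.28, with both knockouts lower in 1 and higher in 3. ALKBH7, the most abundant of those, had 0.46 in the authors' deposited table (adjusted p 0.500).

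Of the reader partners, 0 of 11 YTHDC1 partner genes, 0 of 3 tested YTHDC2 partner genes and 0 of 19 YTHDF decay and translation partner genes were called, with medians of 0.05, 0.37 and -0.08. Both knockouts lay below both controls in 2, 0 and 7 of these genes, and above both in 0, 1 and 3. The shares over all tested genes with recovered reads were 21.2% below and 24.0% above. KMT2A, the methyltransferase named with YTHDC2, had 7160 and 7572 normalized reads in the knockouts, against 7170 in control A and 5440 in control B, and 0.22 in the authors' deposited table (adjusted p 0.691). Like YTHDC2, KMT2A was lowest in control B. SRSF3, a splicing factor recruited by YTHDC1, and CNOT1, the CCR4-NOT scaffold bound by YTHDF2, had -0.26 and -0.15 in the authors' deposited table (adjusted p 0.627 and 0.711). The 23 other HNRNP genes had 0 calls, a median of -0.10, 12 values below 0, and both knockouts lower in 9 and higher in 7. HNRNPU, the most abundant, had 0.33 in the authors' deposited table (adjusted p 0.621).

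**Figure D5:**
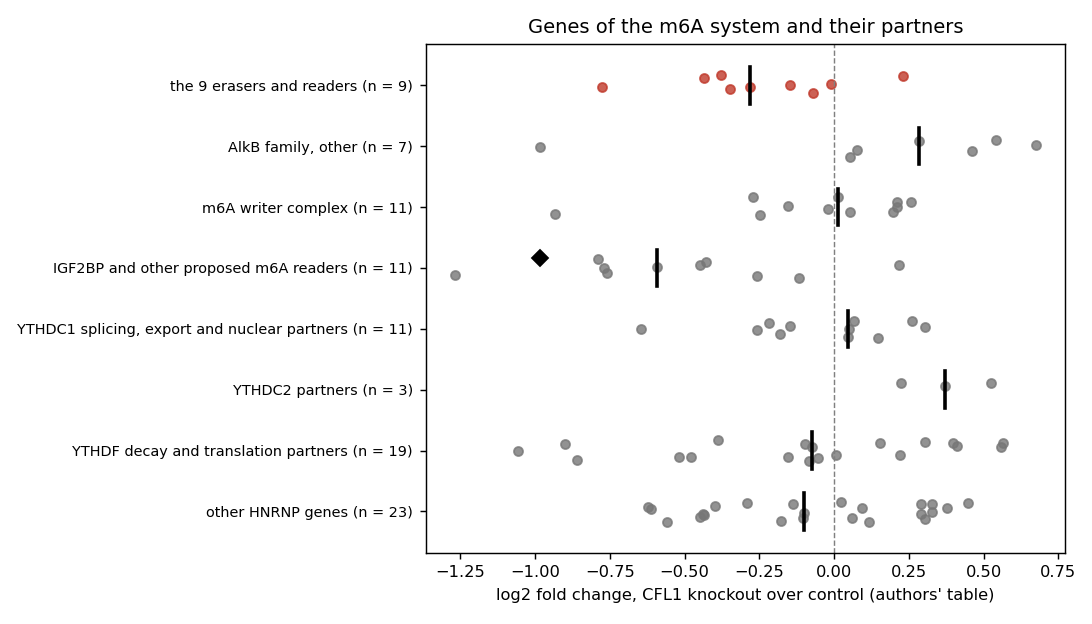
Fold change on the log2 scale (x axis, CFL1 knockout over control), taken from the authors' deposited table, of the 9 genes (red) and of 7 lists of other m6A genes and partners (grey), 1 point a gene; vertical bars are medians and the black diamond is an adjusted p under 0.05. The diamond is IGF2BP3 at -0.98, and the median of the 9 genes is -0.28.

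The genes whose pattern over the 4 libraries was nearest to that of YTHDC2, by Euclidean distance of centred log2(normalized reads + 1) among 11526 genes of base mean 100 or more, were KMT2E, ETFA and POLR2M, at distances of 0.03 each. KMT2E had 2037 and 2095 normalized reads in the knockouts, against 2128 in control A and 1327 in control B. All 3 were likewise lowest in control B, and with 4 libraries, 1 of which stands apart, such likeness is a description only.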

How the data were processed

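RNA of 2 CFL1 knockout and 2 control libraries was sequenced, with cutadapt, FastQC, STAR, RSEM and hg19 listed, per the submitters' processing notes. The 1 file is the authors' DESeq2 table. Its base mean is a signal deposited by the authors, the mean normalized count. The log2 fold change with its standard error (log2 scale), the Wald score and the p-value columns are as deposited by the authors, with an adjusted p for 16629 genes. The table has no column per library, so the authors' DESeq2 adjusted p under 0.05 was the call.

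Whole reads per library were recovered from base means printed to 15 digits. The worth of 1 read in each library was read from the 4 commonest low base means, and the sign of the fold change there gave the group. Candidate reads were kept when alone, or when the fold change they imply, with the dispersion taken from the standard error, lay within 1e-05 log2 of the deposited one and at least 10 times nearer than the next. Below a base mean of 20000, 30691 of 30784 genes (99.7%) were recovered. Of the 17170 recovered genes whose base mean reached 10, 16157 also lay within that fold-change limit. Among the members the largest gap was 1.12e-06, for YTHDF2. Of base means shifted on purpose, 0 of 80 passed in each range below 10000 and 3 of 80 between 10000 and 20000, which holds HNRNPA2B1. Shifted candidates had to meet the fold-change limit even when alone. That check therefore does not measure false recovery among lone candidates kept without the limit. The reads are rounded RSEM estimates, and pseudogene reads may be shared.

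On these reads limma 3.58.1 (R 4.3.3) was run on log2(normalized reads + 1), with a trend in its prior and Benjamini-Hochberg adjustment, where the mean reached 1, and was tested on simulated data. Where 1 library was left out, the lone library was assumed to vary like its counterpart group. Also tried were voom, a minimum mean of 10, a pseudocount of 0.1, scaling by total or upper quartile, other thresholds and filters, and leaving out each library. Members and lists were chosen with earlier results of these data known. Named genes are the 9 members, CFL1, METTL3, KMT2A, called list members or else the most abundant of each list, and the 3 genes nearest YTHDC2. Lengths came from GENCODE release 29 by gene identifier. Python 3.11.15, numpy 2.4.6, pandas 2.3.3, scipy 1.17.1, numba 0.67.0 and matplotlib 3.10.9 were used.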

Additional observations from a re-analysis of the deposited data

How the results depend on the processing

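No paired analysis was possible because the table has no columns per library and the recovered libraries cannot be tied to the replicate numbers in the labels. For the 9 genes, 79 of 90 alternative fold changes kept their direction with no call, 7 turned and 4 were newly called. The count of called members was 0 under each threshold and filter on the deposited p-values. It was also 0 with limma and voom on all 4 libraries, which called 0 of all genes and so show nothing about the members. Leaving out 1 library gave from 0 to 4, the 4 being YTHDC2, YTHDF1, YTHDF2 and HNRNPC without control A, where 33.7% of all genes were called. FTO, YTHDF1, YTHDF2 and YTHDF3 never turned.

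Leaving out 1 library gave log2 fold changes from -0.76 to 0.13 for ALKBH5, from -0.074 to 0.62 for YTHDC2, from -0.59 to 0.12 for HNRNPC and from -0.14 to 0.12 for HNRNPA2B1. ALKBH5, YTHDC2 and HNRNPC turned without control B, and HNRNPA2B1 turned without control A (0.12) and without knockout B (0.09). Scaling by total reads, which moved the median of all genes by 0.13, gave 0.057 for YTHDC1 and 0.12 for HNRNPA2B1. The cause was not tested. Of the other listed genes, 1 was called as deposited, 0 at an adjusted p under 0.01, 0 with adjustment over every gene with a p, 0 in each limma and voom setting with all libraries (as of all genes), 6 at an unadjusted p under 0.05, and from 0 to 31 when 1 library was left out. The 6 were among 85 tested listed genes, where 12.6% of all tested genes had an unadjusted p under 0.05 as deposited. They are therefore no excess over all tested genes. The 31 came from the fit without control A, whose share of all genes called is given above. By coding length, 2 of 9 genes kept their rank, and leaving out 1 library kept from 4 to 9. Chosen after seeing the data were, for the count of members, the other limma pseudocount, minimum mean and scalings, for the count of listed genes, the unadjusted p, the base mean filters and each limma, voom and left-out-library value, and for the order, leaving out each library. Each member had at least 754 reads in every library, and each group had 2 libraries.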

Other observations

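The table holds 16 further genes whose symbol begins with that of a member, pseudogenes and antisense genes among them, of which 9 had a base mean above 0. The 12 HNRNPC relatives summed to a base mean of 27.4, which is 0.297% of that of HNRNPC. HNRNPCP2 had a base mean of 10.2 and a log2 fold change of -0.50 in the authors' deposited table, with no adjusted p. The antisense gene YTHDF3-AS1 had a base mean of 16.4 and a log2 fold change of 0.24 in the authors' deposited table (adjusted p 0.900). The sources used here do not say whether counting used strand, and any stretch that YTHDF3 and YTHDF3-AS1 share was not measured.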
